A study of Homo sapiens with 6 samples.

Results

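The bone morphogenetic protein (BMP) pathway and its ID target genes were followed across 3 lines of MDA-MB-231 cells through 10 named genes, BMP1, BMP2, BMP4, BMPR1A, BMPR2, ID1, ID2, ID3, SMAD6 and GREM1. These genes were chosen by name from the 61806 genes of the table, without a threshold on any measured value, and each matched a single row. The other 65 genes of 9 pathway lists, grouped by role, were counted beside them. Members and lists were both chosen with earlier results of these data known, which limits any share of calls set beside that of all genes.

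BMPs are secreted ligands of the TGF-beta family. They bind a complex of type I and type II serine/threonine kinase receptors, which phosphorylates SMAD1, SMAD5 and SMAD9. These bind SMAD4, enter the nucleus and activate genes that include the ID genes and SMAD6. ID proteins lack a DNA-binding region, pair with E proteins and other helix-loop-helix factors and keep them from binding DNA. SMAD6 is an inhibitory SMAD that acts back on the pathway. Outside the cell, antagonists such as gremlin (GREM1) and noggin bind the ligands, and the tolloid protease encoded by BMP1, which is not itself a ligand, cleaves the antagonist chordin. In breast cancer cells, ID1 and ID3 are known for a part in metastatic growth.

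MDA-MB-231 is an established human line of triple-negative breast cancer, a type that lacks the estrogen and progesterone receptors and amplified ERBB2. RNA was sequenced from a control line labelled shNC and from lines carrying either of 2 short hairpins against the chromatin architectural factor HMGA2 (shHMGA2-1 and shHMGA2-2), with 2 libraries a line. The comparison asks how gene expression in these cells differs when HMGA2 is knocked down. The hairpins were delivered by lentivirus under puromycin selection, and the study's methods describe stable knockdown lines grown from a single clone, which is not stated for shNC. A difference between lines therefore includes any other difference between the clones, and the hairpin and the clone cannot be told apart. Groups were taken from the sample titles, although the names given to the control libraries say wild type and those given to the shHMGA2-1 libraries carry SH2. Nothing in the labels says that the 2 libraries of a line came from separate cultures, so p-values measure only the spread between these libraries, which may be technical. In bulk RNA, fewer cells that express a gene and less RNA per cell cannot be told apart.

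Libraries held 16461178 to 17167293 counts, so that a count of 0 allows a level of up to 0.175 to 0.182 CPM (3 counts of the total, counting error only). HMGA2 was counted 2126 and 2161 times in shNC, 858 and 989 times in shHMGA2-1 and 435 and 482 times in shHMGA2-2. Its transcript was thus lower than in shNC in all 4 knockdown libraries, by 2.45-fold in shHMGA2-1 and by 4.94-fold in shHMGA2-2, and it differed 2.02-fold between the knockdown lines. VIM, CD44, CAV1 and ANXA1, which mark mesenchymal-like breast lines, lay between 64.9 and 432 FPKM (fragments per kilobase of exon, scaled to the library total), while TGFBI, of the same list, lay at 0.22 to 1.76. ESR1 and PGR did not exceed 0.05 FPKM, and ERBB2 lay at 6.43 to 10.8. Luminal and epithelial markers differed more, with EPCAM at 3.08 to 7.26, GATA3 at 0.65 to 1.01 in shNC and shHMGA2-1 and 4.69 to 5.65 in shHMGA2-2, and FOXA1 at 1.25 to 1.47 in shNC and 0.01 to 0.07 in shHMGA2-2. The summed counts of 5 leukocyte markers did not exceed 28 in a library.

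For the members that rose in the knockdown lines, sequence before the transcription start site is shown, since SMAD proteins are known to bind DNA that holds GTCT or its reverse complement AGAC. Promoters of RefSeq (GRCh38.p14) were found for 8 of the 10 members, BMP1 and BMP2 excepted, and the 250 bases before each start were searched on both strands. Capitals mark GTCT and AGAC, and positions count back from the start, whose last base before it is -1. For ID1 the stretch outside every exon of the GENCODE annotation is given (chr20:31605039-31605282, plus strand). For ID2 (chr2:8681944-8681973, plus strand), ID3 (chr1:23559637-23559666, minus strand) and SMAD6 (chr15:66702206-66702235, plus strand) the 30 bases around the matches are given. In these 3 genes the matched stretch overlaps annotated exons, so it may be transcribed. Of the 250 bases, 244 lay outside exons for ID1, 21 for ID2 (exons of ID2 and ID2-AS1), 0 for ID3 and 242 for SMAD6.
ID1: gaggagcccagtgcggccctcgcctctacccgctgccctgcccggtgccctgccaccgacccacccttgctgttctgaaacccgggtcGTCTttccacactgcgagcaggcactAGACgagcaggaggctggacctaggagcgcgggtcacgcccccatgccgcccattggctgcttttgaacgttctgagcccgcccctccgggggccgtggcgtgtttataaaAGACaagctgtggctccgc
ID2: cgcccgctcGTCTtgatAGACgtgccacct
ID3: ctccgcgGTCTtcggcgtcAGACcagccgg
SMAD6: ccgcggagccgccaaagtGTCTAGACtggc

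GTCT or AGAC stood in 77.5% of the 35116 RefSeq promoters of this length, so a match is common. In the ID1, ID2 and ID3 windows the first GTCT was followed by an AGAC, starting at -162 and -136 in ID1, at -103 and -95 in ID2 and at -158 and -146 in ID3. The pair was not particular to them, since GREM1 also held a GTCT at -99 and an AGAC at -19. In all, BMP4 held 4 such matches over 3 promoters, BMPR2 held 4, GREM1 held 4 over 2 promoters and BMPR1A held none. SMAD6 held both without a gap, as GTCTAGAC from -12 to -5. That palindrome, which contains the shorter motif, was found in 64 of all promoters, or 0.182%, and in no other member matched. The GC-rich motif GGCGCC, present in 16.4% of promoters, was absent from the 250 bases of the 4 genes shown and present in BMP4, BMPR2 and GREM1. A match describes letters only and does not show a bound site. Sequence beyond the 250 bases was not searched, so an absence here says nothing of sites further away.

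All 9 members with enough counts were tested (GREM1 was not) with edgeR's quasi-likelihood test in a model of the 3 lines, and a gene was called at a Benjamini-Hochberg adjusted p under 0.05 over 16110 genes. Between shHMGA2-2 and shNC, 8 of the 9 members were called against 58.7% of all genes. Of these, 4 rose (ID1, ID2, ID3 and SMAD6; 29.5% of all genes rose) and 4 fell (BMP2, BMP4, BMPR1A and BMPR2; 29.2% fell), and 6 changed at least 2-fold, against 21.3% of all genes. ID2 passed the filter on low counts through shHMGA2-2 alone, the line where it was high, so it had to differ there. Without it, 7 of 8 members were called in this comparison, 3 higher and 4 lower, and 5 changed at least 2-fold. BMP2 stays in the counts that involve shHMGA2-2, although it passed the filter through shNC and shHMGA2-1 alone, where it was high. Between shHMGA2-1 and shNC, 4 members were called against 33.4% of all genes. Here ID1, ID3 and SMAD6 rose (15.8% of all genes rose) and BMP4 fell (17.6% fell), and SMAD6 alone reached 2-fold, as 8.49% of all genes did. The 2 comparisons share the shNC libraries and are not independent. Between the knockdown lines 6 members differed, against 50.2% of all genes, and 5 without ID2. ID1, ID2 and ID3 were higher in shHMGA2-2 (24.5% of all genes), and BMP2, BMP4 and BMPR1A were lower (25.7%). Of the 6, 4 differed at least 2-fold, or 3 without ID2, against 15.1% of all genes. The median log2 fold change of the 8 members without ID2 was 0.022 in shHMGA2-1, -0.028 in shHMGA2-2 and -0.00020 between the knockdown lines, beside 0.010, 0.028 and -0.0017 for all genes.

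**Figure D1:**
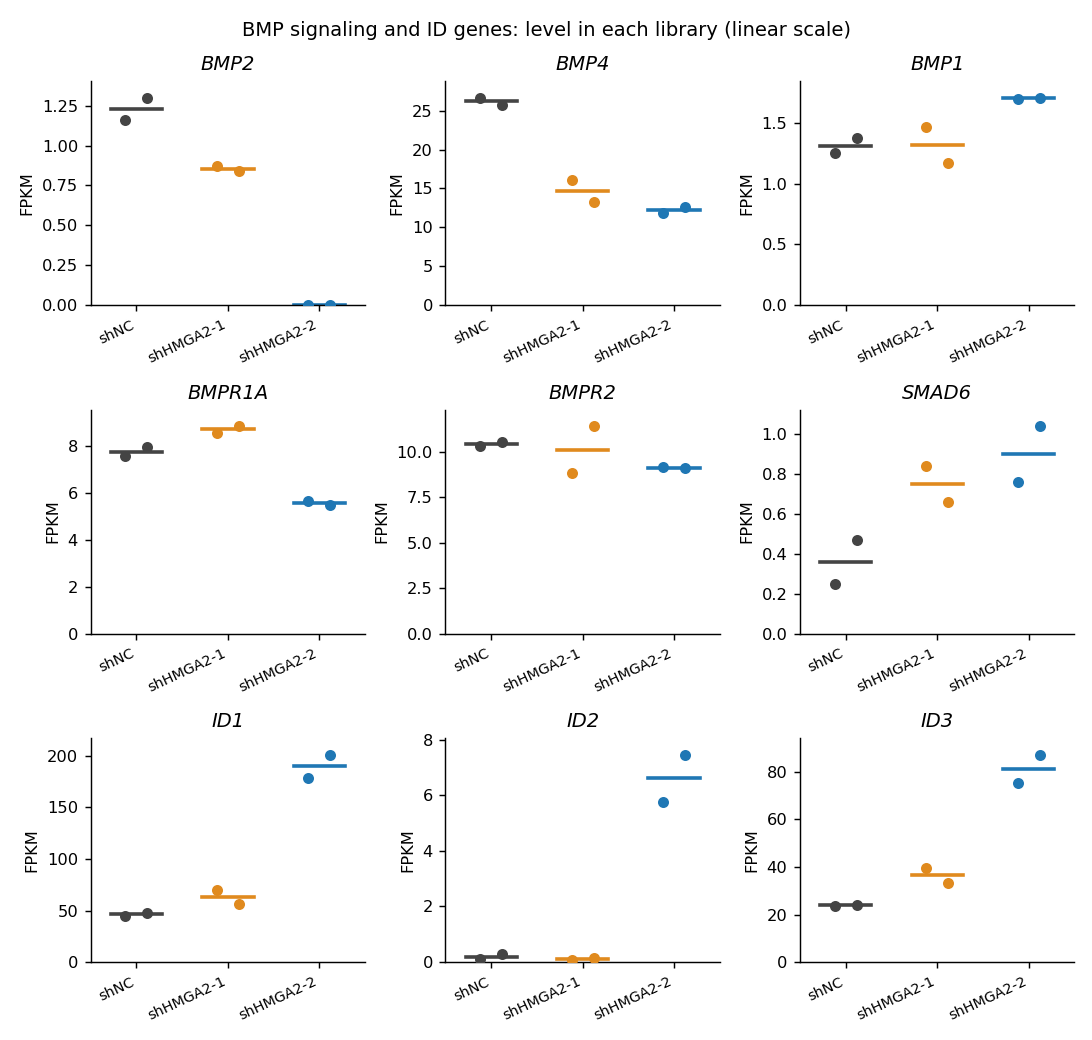
Level (FPKM, linear scale from 0) of 9 members in each library; points are libraries, 2 a line, and bars are the mean of a line. BMP2 was at 0 in both shHMGA2-2 libraries, BMP4 was lower in all 4 knockdown libraries than in shNC, and ID1, ID2 and ID3 were highest in shHMGA2-2.

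In shNC the members' transcript levels spanned from 46.2 FPKM for ID1 to none for GREM1. ID1 was followed by BMP4 (25.7 to 26.7 FPKM), ID3 (23.8 to 24.1), BMPR2 (10.3 to 10.5) and BMPR1A (7.56 to 7.95), whose ranges over the 2 libraries did not overlap. Further down, BMP1 (1.25 to 1.38) overlapped with BMP2 (1.16 to 1.30), and SMAD6 (0.25 to 0.47) with ID2 (0.11 to 0.29). In shHMGA2-2 the order changed. ID1 (178 to 201 FPKM) and ID3 (75.5 to 87.3) both stood above BMP4 (11.8 to 12.6), and ID2 (5.74 to 7.46) stood just above BMPR1A (5.50 to 5.67).

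BMP4 (ENSG00000125378, chromosome 14, 53949736 to 53958761, minus strand, GRCh38), a ligand that acts through BMPR1A and BMPR2, was the most abundant ligand transcript in every library. It was counted 1402 and 1351 times in shNC, 856 and 705 times in shHMGA2-1 and 601 and 647 times in shHMGA2-2. All 4 knockdown libraries lay below both controls, and the knockdown lines did not overlap with each other. The level fell from 26.2 ± 0.693 FPKM (SD, n = 2) in shNC to 14.7 ± 1.99 in shHMGA2-1 and 12.2 ± 0.573 in shHMGA2-2. On the log2 scale it fell by 0.90 in shHMGA2-1 (SE 0.091, adjusted p = 3.00e-08) and by 1.22 in shHMGA2-2 (SE 0.093, adjusted p = 4.45e-11). The difference of -0.32 between the knockdown lines passed (SE 0.096, adjusted p = 0.00668), but not without shHMGA2-1 replicate 1 (adjusted p = 0.0793) or shHMGA2-2 replicate 1 (0.0796), nor with limma on log2(FPKM + 1) (0.0826). A gene without a symbol on the opposite strand overlaps BMP4 and was counted 11 to 35 times a library.

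BMP2 (ENSG00000125845, chromosome 20, 6767686 to 6780246, plus strand), a ligand close in sequence to BMP4, had counts of 70 and 78 in shNC, of 53 and 51 in shHMGA2-1 and of 0 in both shHMGA2-2 libraries. No library of one line overlapped with another line. Against the floor of 3 counts a library, BMP2 was at least 26.1-fold lower in shHMGA2-2 than in shNC. Compared with shHMGA2-1 it was at least 17.3-fold lower there. No p is given for these differences, since BMP2 entered the test through shNC and shHMGA2-1 alone. In shHMGA2-1 the log2 fold change of -0.59 did not pass (SE 0.26, adjusted p = 0.0843, 95% interval -1.12 to -0.055).

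Among all 14 ligand genes listed, 6 had enough counts to be tested. For BMP5 and GDF7 only shHMGA2-2 had both libraries past that filter, and BMP5 had to differ there. GDF7 had counts of 1 and 4 in shNC, of 8 and 14 in shHMGA2-1 and of 10 and 13 in shHMGA2-2. Its log2 fold change against shNC was 2.01 in shHMGA2-1 and 2.07 in shHMGA2-2, on few counts. Between the knockdown lines it was 0.059. Of the other 4, 1 was higher and 2 were lower in shHMGA2-2 than in shNC (58.7% of all genes called), and 1 was higher and 1 lower in shHMGA2-1 (33.4%). BMP5, a further ligand of the family, had 0 counts in all 4 other libraries and 599 and 578 counts in shHMGA2-2, which was at least 186-fold higher than in shNC and at least 196-fold higher than in shHMGA2-1. BMP6, a ligand known for its part in iron metabolism, had counts of 8 and 6 in shNC, of 18 and 27 in shHMGA2-1 and of 58 and 75 in shHMGA2-2, without overlap between lines. It was higher than in shNC by 3.14 on the log2 scale in shHMGA2-2 (SE 0.40) and by 1.59 in shHMGA2-1. The smaller rise was 1.40 without shNC replicate 2 and 1.25 without shHMGA2-1 replicate 2, and it did not pass with DESeq2 (adjusted p = 0.0567). No p of the main test is given for these differences, since BMP6 entered it through the knockdown lines alone. BMP2 and BMP6 stay in the counts of calls above.

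Summed over the ligand list, the level was 28.8 ± 0.672 FPKM in shNC (n = 2), 17.5 ± 2.15 in shHMGA2-1 and 24.0 ± 0.297 in shHMGA2-2. BMP4 made up 91.0 ± 0.284% of that sum in shNC, 84.1 ± 1.03% in shHMGA2-1 and 50.8 ± 1.76% in shHMGA2-2. BMP5 held 37.4 ± 1.61% in shHMGA2-2 and none in the other lines. These shares are of transcripts and carry no test.

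**Figure D2:**
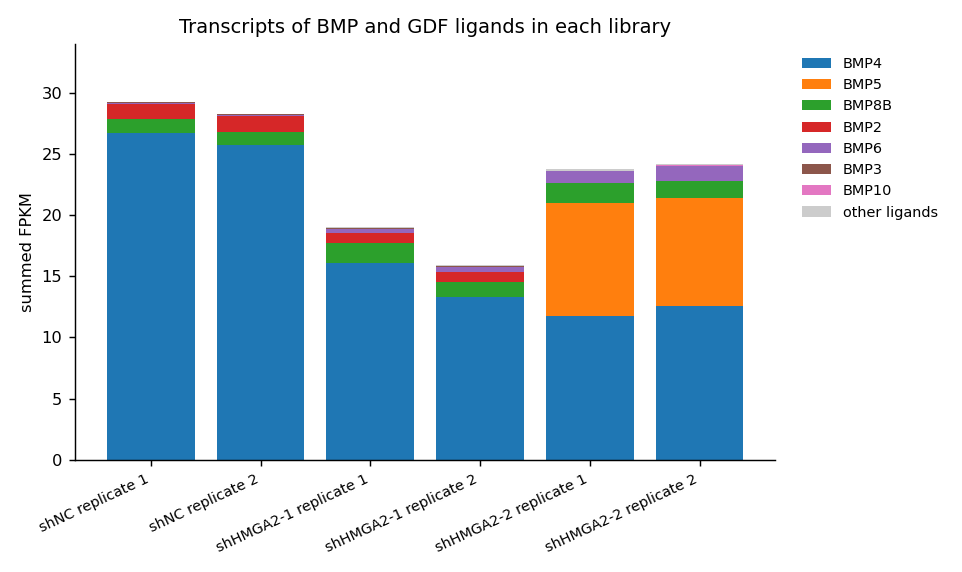
Summed FPKM of BMP and GDF ligand transcripts in each of the 6 libraries, stacked by gene; ligands that stay under 0.1 FPKM in every library are pooled as other ligands. BMP4 is the largest share throughout, BMP2 is seen in shNC and shHMGA2-1, and BMP5 is seen in both shHMGA2-2 libraries alone.

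BMP1 (ENSG00000168487, chromosome 8, 22165140 to 22212326, plus strand), the tolloid protease, had counts of 150 and 166 in shNC, of 178 and 142 in shHMGA2-1 and of 198 and 200 in shHMGA2-2. The shHMGA2-1 libraries lay on both sides of the controls, while both shHMGA2-2 libraries were above every other. Differences did not pass in any comparison. They were -0.061 on the log2 scale for shHMGA2-1 (95% interval -0.38 to 0.26, adjusted p = 0.807), 0.25 for shHMGA2-2 (-0.058 to 0.56, adjusted p = 0.155) and 0.31 between the knockdown lines (0.0034 to 0.62, adjusted p = 0.0867). With upper quartile scaling BMP1 passed in shHMGA2-2 against shNC (0.37, adjusted p = 0.0404), and without shHMGA2-1 replicate 1 it passed between the knockdown lines (0.47, adjusted p = 0.0299).

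Of the 4 other genes for tolloid proteases and their enhancers, 3 were tested, and 2 rose in both knockdown lines (15.8% and 29.5% of all genes rose). TLL2, a relative of BMP1, had counts of 5 and 1 in shNC, of 29 and 17 in shHMGA2-1 and of 15 and 28 in shHMGA2-2. Its log2 fold changes were 2.81 and 2.71. Their size depended on the control library kept, at 4.28 and 4.18 without shNC replicate 1 and 2.10 and 2.00 without replicate 2. No p is given for TLL2, since it passed the count filter through the knockdown lines alone, and its place among the 2 that rose carries that limit. PCOLCE2, which enhances the cleavage of procollagen, had 35 and 30, 56 and 62, and 79 and 69 counts in the same order. Its rise of 1.10 in shHMGA2-2 passed (adjusted p = 0.000681), while that of 0.78 in shHMGA2-1 (0.0250) did not without shNC replicate 1 (0.0650), shNC replicate 2 (0.158) or shHMGA2-1 replicate 2 (0.104), nor with DESeq2 (0.187).

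BMPR1A (ENSG00000107779, chromosome 10, 86756601 to 86932825, plus strand), a type I receptor for BMP2 and BMP4, was counted 1221 and 1285 times in shNC, 1401 and 1443 times in shHMGA2-1 and 889 and 868 times in shHMGA2-2. No line overlapped with another, with shHMGA2-2 lowest and shHMGA2-1 highest. The transcript was lower in shHMGA2-2 than in shNC by 1.51-fold (log2 fold change -0.59, SE 0.083, adjusted p = 1.29e-06) and lower than in shHMGA2-1 by 1.62-fold (-0.70, SE 0.082, adjusted p = 1.42e-07). In shHMGA2-1 the difference from shNC was 0.10 (95% interval -0.062 to 0.27, adjusted p = 0.350). Its pseudogenes BMPR1AP1 and BMPR1AP2 had at most 2 counts in a library.

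BMPR2 (ENSG00000204217, chromosome 2, 202376327 to 202567751, plus strand), the type II receptor, was counted 2189 and 2237 times in shNC, 1898 and 2444 times in shHMGA2-1 and 1886 and 1892 times in shHMGA2-2. The shHMGA2-1 libraries lay on both sides of the controls, and both shHMGA2-2 libraries were below all others. In shHMGA2-2 the transcript was lower by 1.24-fold (log2 fold change -0.31, SE 0.091, adjusted p = 0.00544). That call did not hold without shNC replicate 2 (adjusted p = 0.0634) or shHMGA2-2 replicate 2 (0.0749), with upper quartile scaling (0.0647) or with limma (0.239 and 0.243). In shHMGA2-1 the difference was -0.10 (adjusted p = 0.411). It turned to 0.081 without replicate 1 of that line and to -0.32 without replicate 2 (adjusted p = 0.000410). Between the knockdown lines the difference was -0.20 (adjusted p = 0.0660), and it passed without shHMGA2-1 replicate 1 (-0.39, adjusted p = 8.92e-06).

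Over the whole list of receptors and co-receptors, 8 of 11 genes were tested. In shHMGA2-2, 7 fell and 1 rose, where 29.2% and 29.5% of all genes did. In shHMGA2-1, 2 fell and 1 rose, or 37.5% called, near the 33.4% of all genes. The summed level was 60.4 ± 1.70 FPKM in shNC (n = 2), 43.2 ± 0.849 in shHMGA2-1 and 28.3 ± 0.785 in shHMGA2-2. RGMB, a membrane-anchored co-receptor for BMP2 and BMP4, made up the largest part of that sum in shNC, with 3537 and 3640 counts there, 1715 and 1521 in shHMGA2-1 and 697 and 618 in shHMGA2-2. It fell by 1.23 on the log2 scale in shHMGA2-1 and by 2.53 in shHMGA2-2 (adjusted p = 9.48e-12 and 7.28e-18), and the difference of -1.30 between them passed (adjusted p = 4.53e-12). BMPR1B, the other type I receptor of the BMPR1 pair, was counted 74 and 101 times in shNC, 83 and 81 times in shHMGA2-1 and 8 and 7 times in shHMGA2-2. The log2 fold change was -3.60 in shHMGA2-2 and -0.17 in shHMGA2-1 (adjusted p = 0.597 for the latter). No p is given for shHMGA2-2, since BMPR1B passed the count filter through shNC and shHMGA2-1 alone. Its place among the 7 genes that fell carries that limit. ENG, which encodes the co-receptor endoglin, had counts of 124 and 135 in shNC, of 18 and 9 in shHMGA2-1 and of 20 and 14 in shHMGA2-2 (log2 fold changes -3.33 and -3.00, adjusted p = 3.26e-09 and 2.53e-09). Endoglin is abundant in endothelial cells. The summed counts of 4 endothelial markers, PECAM1, CDH5, TEK and VWF, were 14 to 16 in shNC, 3 to 6 in shHMGA2-1 and 0 to 4 in shHMGA2-2. That difference rested mostly on PECAM1, with 14 and 11 counts in shNC and 2 and 0 in each knockdown line. CDH5, TEK and VWF had at most 4 counts in a library. All 4 markers stayed at or under 0.11 FPKM, and their part in the ENG result was not tested.

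The 4 signal transducers SMAD1, SMAD5, SMAD9 and SMAD4 were all tested, and none changed 2-fold. In shHMGA2-2, 2 fell and none rose (58.7% of all genes called), and in shHMGA2-1, 1 rose and none fell (33.4%). Their summed level was 20.4 ± 1.28 FPKM in shNC, 21.0 ± 1.22 in shHMGA2-1 and 18.3 ± 0.544 in shHMGA2-2 (n = 2 each).

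SMAD6 (ENSG00000137834, chromosome 15, 66702236 to 66782849, plus strand), the inhibitory SMAD, had counts of 36 and 68 in shNC, of 124 and 97 in shHMGA2-1 and of 107 and 148 in shHMGA2-2. All 4 knockdown libraries lay above both controls, and the knockdown lines overlapped with each other. The level was 0.36 ± 0.16 FPKM (SD, n = 2) in shNC, 0.75 ± 0.13 in shHMGA2-1 and 0.90 ± 0.20 in shHMGA2-2. SMAD6 rose 2.01-fold in shHMGA2-1 (log2 fold change 1.01, SE 0.25, adjusted p = 0.00256) and 2.31-fold in shHMGA2-2 (1.21, SE 0.24, adjusted p = 0.000142). The rise in shHMGA2-1 did not pass without shNC replicate 1, the lower control (0.62, adjusted p = 0.106), or with limma on FPKM (adjusted p = 0.118 and 0.106). Between the knockdown lines the difference was 0.20 (95% interval -0.24 to 0.65, adjusted p = 0.456).

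All 8 intracellular inhibitors listed were tested. In shHMGA2-1, 3 rose and 1 fell (33.4% of all genes called), in shHMGA2-2, 2 rose and 3 fell (58.7%), and SMAD6 was the only one to reach 2-fold in either line.

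ID1 (ENSG00000125968, chromosome 20, 31605283 to 31606515, plus strand) was counted 937 and 996 times in shNC, 1483 and 1194 times in shHMGA2-1 and 3616 and 4113 times in shHMGA2-2. The lines did not overlap, with both shHMGA2-2 libraries far above the rest. Its level was 46.2 ± 1.98 FPKM (SD, n = 2) in shNC, 63.3 ± 9.55 in shHMGA2-1 and 190 ± 16.2 in shHMGA2-2. ID1 rose 3.78-fold in shHMGA2-2 (log2 fold change 1.92, SE 0.087, adjusted p = 2.34e-15) and 1.31-fold in shHMGA2-1 (0.39, SE 0.089, adjusted p = 0.00139). The smaller rise did not pass without shNC replicate 1 (0.34, adjusted p = 0.0540). Between the knockdown lines ID1 differed by 1.53 (SE 0.085, adjusted p = 1.86e-13).

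ID3 (ENSG00000117318, chromosome 1, 23557926 to 23559501, minus strand) was counted 604 and 611 times in shNC, 1019 and 857 times in shHMGA2-1 and 1858 and 2166 times in shHMGA2-2. As for ID1, the lines did not overlap and rose in the same order. ID3 was higher by 1.46-fold in shHMGA2-1 (log2 fold change 0.55, SE 0.095, adjusted p = 7.11e-05) and by 3.13-fold in shHMGA2-2 (1.65, SE 0.092, adjusted p = 1.34e-13). The difference between the knockdown lines was 1.10 (SE 0.089, adjusted p = 2.16e-10). The level of ID1 over that of ID3, as a ratio of FPKM, was 1.93 ± 0.067 in shNC, 1.73 ± 0.053 in shHMGA2-1 and 2.33 ± 0.040 in shHMGA2-2 (n = 2 each).

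ID2 (ENSG00000115738, chromosome 2, 8678845 to 8684461, plus strand) had counts of 4 and 11 in shNC, of 3 and 5 in shHMGA2-1 and of 209 and 274 in shHMGA2-2. It was near the floor in shNC and shHMGA2-1, which overlapped, and well above it in shHMGA2-2. ID2 was 29.95-fold higher in shHMGA2-2 than in shNC (log2 fold change 4.90, SE 0.30), a size that rests on few control counts and was 55.4-fold without shNC replicate 2. It was higher than in shHMGA2-1 by 5.87 on the log2 scale (SE 0.34). No p is given for these differences, since ID2 entered the test through shHMGA2-2 alone. In shHMGA2-1 the difference of -0.96 rests on few counts (95% interval -2.32 to 0.39, adjusted p = 0.282). The antisense gene ID2-AS1 overlaps ID2 and had no count in shNC, at most 2 in a shHMGA2-1 library and 14 and 17 in the shHMGA2-2 libraries. The strand setting of the counting is not given in the sources used here, so reads of the 2 genes where they overlap cannot be told apart. ID4, the remaining gene of the family, had 0 to 3 counts in shNC and shHMGA2-1 libraries and 4 and 14 in shHMGA2-2, and was not tested.

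**Figure D3:**
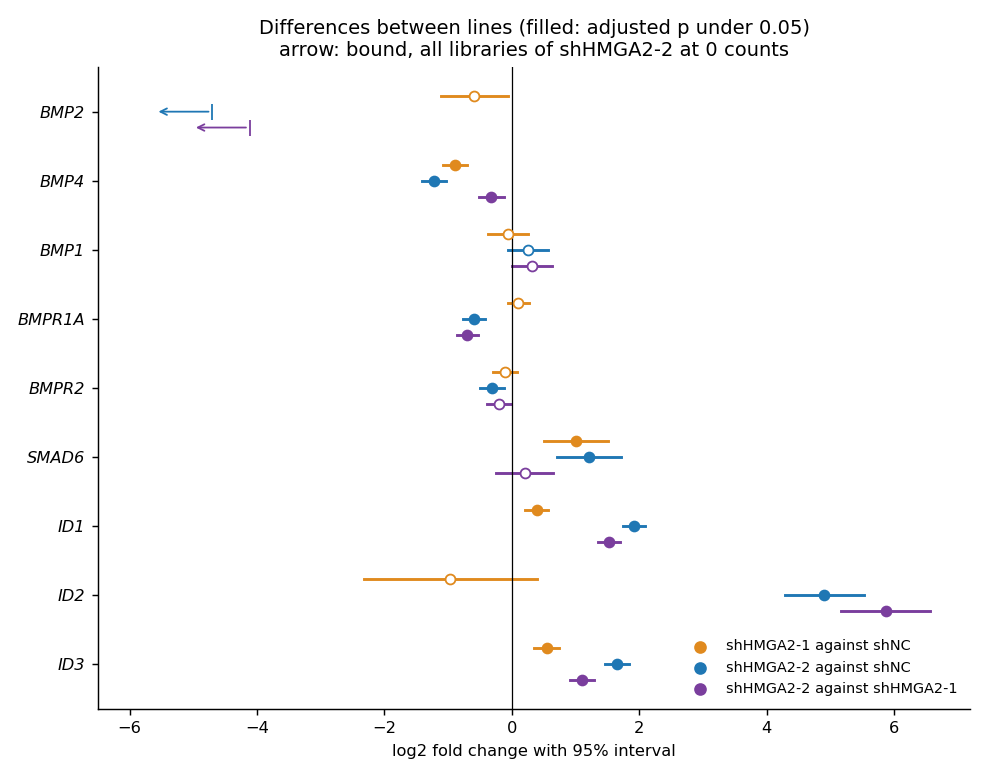
Log2 fold change with 95% interval (horizontal axis) of 9 members in 3 comparisons of lines, from edgeR; filled points have an adjusted p under 0.05. Arrows for BMP2 start at the bound set by 3 counts a library, since shHMGA2-2 had 0 counts. ID2 passed the count filter through shHMGA2-2 alone, so its filled points are not read as calls. It has its widest interval in shHMGA2-1, where its counts are few.

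E proteins are the partners that ID proteins hold back, and 2 of the 3 listed (TCF3 and TCF12, not TCF4) were tested. Both fell in shHMGA2-2 (29.2% of all genes fell), and TCF3, named here after its values were seen, fell in shHMGA2-1 (17.6% fell). The summed FPKM of the ID genes came to 68.7 and 72.0 in shNC, to 110 and 90.1 in shHMGA2-1 and to 259 and 296 in shHMGA2-2. The summed FPKM of the E protein genes was 31.1 and 32.6, 26.1 and 24.3, and 21.1 and 22.7 in the same order. The lines did not overlap in either sum, and the sums moved in opposite directions. ID transcripts outnumbered E protein transcripts per unit length by 2.21 ± 0.0012 in shNC, 3.96 ± 0.35 in shHMGA2-1 and 12.7 ± 0.52 in shHMGA2-2 (ratio of sums, n = 2 each). ID2 accounted for 2.37 ± 0.217% of the ID sum in shHMGA2-2, so the ratio rested on ID1 and ID3.

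**Figure D4:**
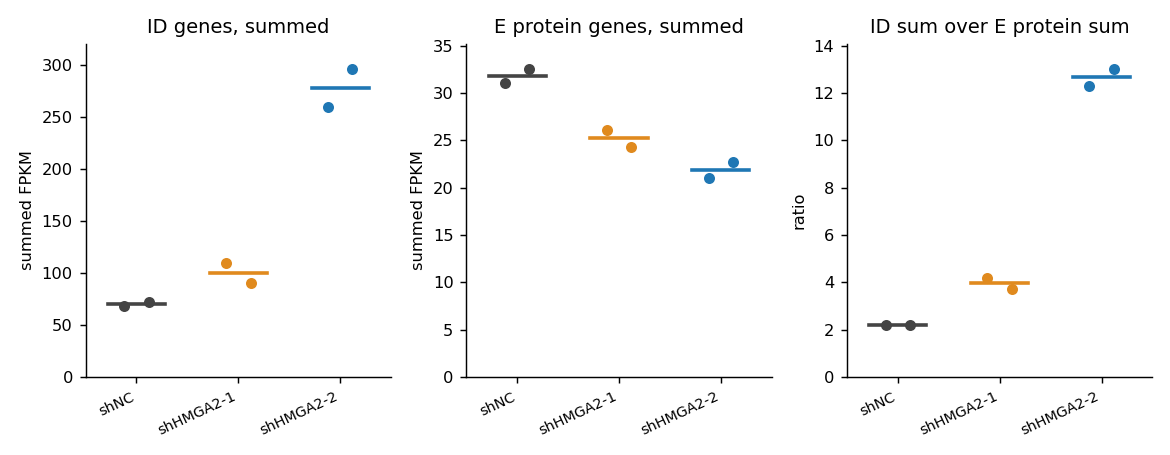
Summed FPKM of the ID genes, summed FPKM of the E protein genes and their ratio; points are libraries, 2 a line, bars are means, and axes start at 0. The ID sum and the ratio were highest in both shHMGA2-2 libraries, where the E protein sum was lowest.

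GREM1 (ENSG00000166923, chromosome 15, 32718004 to 32745106, plus strand), which encodes the ligand trap gremlin, had 0 counts in 5 libraries and 1 count in shHMGA2-2 replicate 1. It was not detectable at this depth in any line, and no fold is given.

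Other antagonists were expressed, and 9 of the 17 genes listed were tested, of which BMPER passed the count filter through shNC alone. Of the other 8, 6 fell and 1 rose in shHMGA2-2, where 29.2% and 29.5% of all genes did. In shHMGA2-1, 4 fell and 2 rose, where 17.6% and 15.8% did. The summed level of the list went the other way there, with 276 ± 1.91 FPKM in shNC (n = 2), 342 ± 16.7 in shHMGA2-1 and 220 ± 0.636 in shHMGA2-2. CRIM1, named here after its values were seen, was the largest part of that sum, at 116, 197 and 122 FPKM in the same order. It rose by 0.70 on the log2 scale in shHMGA2-1 (adjusted p = 2.22e-09) and differed by -0.049 in shHMGA2-2 (adjusted p = 0.515). CHRDL1, a chordin-like antagonist, had counts of 761 and 817 in shNC, of 688 and 729 in shHMGA2-1 and of 24 and 48 in shHMGA2-2 (log2 fold change in shHMGA2-2 -4.53, SE 0.17, adjusted p = 3.80e-17). FST, the activin and BMP binding protein follistatin, had 778 and 774, 272 and 262, and 172 and 183 counts, a fall of 1.62 in shHMGA2-1 and of 2.21 in shHMGA2-2 on the log2 scale (adjusted p = 1.25e-11 and 1.59e-14). BMPER, a BMP-binding endothelial regulator, had 22 and 40 counts in shNC and 5 to 8 in the knockdown libraries (log2 fold changes -2.42 and -2.21, without a p because of that filter). FST thus fell in both lines, while CHRDL1 fell in shHMGA2-2 and had a log2 fold change of -0.23 in shHMGA2-1 (adjusted p = 0.109).

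FSTL1, a follistatin-like glycoprotein, went in opposite directions in the knockdown lines. It had counts of 7642 and 7792 in shNC, of 10490 and 10677 in shHMGA2-1 and of 3985 and 4132 in shHMGA2-2, so it rose by 0.38 in one line and fell by 1.01 in the other on the log2 scale (adjusted p = 1.90e-05 and 4.62e-13). FSTL3 had 471 and 409, 569 and 543, and 247 and 291 counts, with a difference of 0.26 in shHMGA2-1 (adjusted p = 0.0693) and a log2 fold change of -0.79 in shHMGA2-2 (adjusted p = 2.69e-06), and it differed by -1.05 between the knockdown lines (adjusted p = 3.67e-08).

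Beyond the ID genes, 5 of 9 other known BMP target genes were tested, of which MSX2 passed the count filter through shHMGA2-2 alone. Of the other 4, 2 rose and 2 fell in shHMGA2-2 (58.7% of all genes called), and 1 rose and 1 fell in shHMGA2-1 (33.4%). ATOH8, a helix-loop-helix factor induced by BMP signaling, had counts of 277 and 227 in shNC, of 423 and 325 in shHMGA2-1 and of 570 and 572 in shHMGA2-2. It rose by 1.10 on the log2 scale in shHMGA2-2 (adjusted p = 5.56e-08). Its rise of 0.49 in shHMGA2-1 (0.00499) did not pass without shNC replicate 2 (0.142) or shHMGA2-1 replicate 1 (0.0909). MSX2, a homeobox factor, had counts of 1 and 0 in shNC, of 0 in both shHMGA2-1 libraries and of 64 and 88 in shHMGA2-2, a ratio to shNC of 144 with a counting interval of 25.4 to 5715. Against shHMGA2-1 it was at least 25.2-fold higher. GATA3, a luminal transcription factor that also served as a marker low in this line, had 58 and 41, 43 and 38, and 262 and 318 counts, and was higher in shHMGA2-2 by 2.47 (adjusted p = 4.29e-11).

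RUNX2, an osteoblast factor, fell in both lines. It had counts of 549 and 505 in shNC, of 102 and 108 in shHMGA2-1 and of 417 and 416 in shHMGA2-2. Its fall was larger in shHMGA2-1 (by 2.40, adjusted p = 4.18e-13) than in shHMGA2-2 (by 0.42, adjusted p = 0.00170, and 0.0610 with limma on log2(FPKM + 0.1)), and the difference of 1.98 passed (adjusted p = 4.72e-12). HEY1, a Notch and BMP target, had 18 to 22 counts in shNC and shHMGA2-1 libraries and 3 and 9 in shHMGA2-2. The log2 fold change in shHMGA2-2 was -1.80, and it was -1.24 without replicate 1 of that line and -2.75 without replicate 2. With DESeq2 it did not pass (adjusted p = 0.0591). No p of the main test is given for shHMGA2-2, since HEY1 passed the count filter through shNC and shHMGA2-1 alone. HEY1 stays in the counts of calls above. In shHMGA2-1 its log2 fold change was -0.042 (adjusted p = 0.963).

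**Figure D5:**
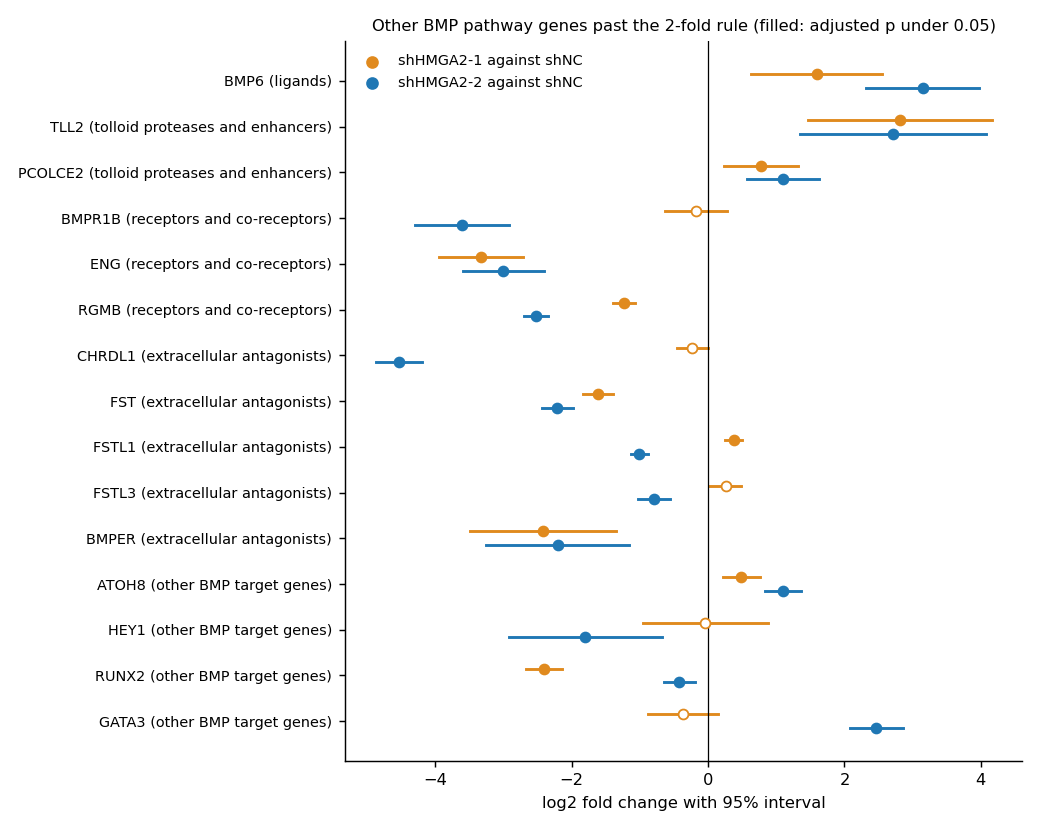
Log2 fold change with 95% interval of 15 other pathway genes in each knockdown line against shNC, labelled by role; filled points have an adjusted p under 0.05, and BMP5 and MSX2, with controls at or under 3 counts, are left out. BMPR1B and CHRDL1 fell in shHMGA2-2 while their points for shHMGA2-1 are open, and FSTL1 lies on both sides of 0. BMPER passed the count filter through shNC alone, so its filled points are not read as calls. BMPR1B and HEY1 passed it through shNC and shHMGA2-1 alone, and BMP6 and TLL2 through the knockdown lines alone, which limits their filled points.

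Counted together, 40 of the 65 other pathway genes were tested, and 36 of them without BMP5, GDF7, MSX2 and BMPER. Of these 36, 19 were called in shHMGA2-1 (10 higher, 9 lower; 52.8% against 33.4% of all genes) and 28 in shHMGA2-2 (8 higher, 20 lower; 77.8% against 58.7%). Between the knockdown lines 25 differed, 7 of them higher and 18 lower in shHMGA2-2 (69.4% against 50.2%). Their median log2 fold change was -0.078 in shHMGA2-1, -0.40 in shHMGA2-2 and -0.25 between the knockdown lines, against the same medians of all genes as above.

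With the 4 knockdown libraries taken as a single group against shNC, 1 of the 9 members was called, against 5.26% of all genes. BMP4 fell by 1.05 on the log2 scale (SE 0.15, adjusted p = 0.0164). Without either shNC library it did not pass (adjusted p = 0.196 and 0.181). ID1, ID3 and SMAD6 were higher by 1.35, 1.20 and 1.11 on that scale and did not pass (adjusted p = 0.193, 0.140 and 0.106), though DESeq2 called each of the 3 (0.0399, 0.0191 and 0.0232). The common biological coefficient of variation was 0.291 in that model and 0.0583 in the model of 3 lines, since the former counts the distance between the knockdown lines as spread.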

How the data were processed

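RNA of 6 MDA-MB-231 libraries, 2 each of shNC, shHMGA2-1 and shHMGA2-2, was analysed, with groups and replicate numbers taken from the sample titles. For every gene and library the authors deposited a raw count, without normalization, beside an FPKM value. Dividing the counts by exonic length and library total gave 100% of the deposited FPKM values within 0.006. The submitters' processing notes list HISAT2 version 2.2.1, HTSeq version 0.6.1 and GRCh38.p13. The annotation release and the strand setting are not given in the sources used here.

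Counts were analysed with edgeR version 4.0.16 in R version 4.3.3, with TMM factors of 0.958 to 1.05, filterByExpr by group, a model of 3 lines and quasi-likelihood tests, adjusted over 16110 genes by the Benjamini-Hochberg method. The 4 knockdown libraries were compared with shNC in a second model of 2 groups. The standard error of a log2 fold change is its size divided by the square root of F. Counts of calls are also given without the 5 pathway genes that a single line carried past the filter, which asks for about 10 counts in 2 libraries; this, and the folds without a library, were added after seeing the data. BMP2, BMPR1B and HEY1 passed the filter through shNC and shHMGA2-1 alone, and BMP6 and TLL2 through the knockdown lines alone. These genes stay in the counts of calls, which carry that limit, and no p of the main test is given for them against the remaining line. A group was at the floor where each library had at most 3 counts, and folds against it are bounds on TMM-scaled libraries. Libraries of 1 line differed by more than sampling noise (chi-square per degree of freedom 2.03, 6.21 and 2.91 in shNC, shHMGA2-1 and shHMGA2-2).

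Named genes were the 10 members, HMGA2, and other genes of the pathway lists with an adjusted p under 0.05, a change of at least 2-fold between any 2 lines and at least 20 counts in a library; markers are given as ranges. Members and lists were chosen with earlier results of these data known. Alternatives were DESeq2 version 1.42.0, limma version 3.58.1 on log2(FPKM + 1) and log2(FPKM + 0.1) where the mean FPKM reached 0.5, RLE and upper quartile scaling, no filter, a mean FPKM of at least 1, a 2-fold threshold, the replicate number as a block, and each library left out in turn. Sequences and motifs were read in Python version 3.11.15.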

Additional observations from a re-analysis of the deposited data

Results flagged for a closer look

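For 6 members the difference from shNC was not the same in shHMGA2-2 and shHMGA2-1 in a direct edgeR test with Benjamini-Hochberg adjustment. On the log2 scale the difference in shHMGA2-2 exceeded that in shHMGA2-1 by 1.53 for ID1, by 5.87 for ID2 and by 1.10 for ID3. It was lower by a difference of -0.32 for BMP4, -0.70 for BMPR1A and -8.68 for BMP2. The last value depends on the prior count of the fit, since shHMGA2-2 had 0 counts of BMP2, and the bound is at least 17.3-fold. ID2 passed the count filter through shHMGA2-2 alone and had to differ. BMP2 passed it through shNC and shHMGA2-1 alone, so no p is given for either gene. The adjusted p was 1.86e-13 for ID1, 2.16e-10 for ID3, 0.00668 for BMP4 and 1.42e-07 for BMPR1A. HMGA2 also differed between the lines, by -1.01 (adjusted p = 3.07e-09), and its part in these differences was not tested.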

How the results depend on the processing

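Of 496 alternative values for single members, 464 kept direction and side of the threshold, 16 lost the call, 9 gained it and 7 changed sign, none of the last called in the main test. The cause was not tested. Those that changed sign were BMP1 in shHMGA2-1 (0.0032 with upper quartile scaling, 0.00066 with limma on log2(FPKM + 1), -0.22 to 0.078 with a library left out), BMPR2 in shHMGA2-1 (-0.32 to 0.081) and between the knockdown lines (-0.39 to 0.0073), and SMAD6 between the knockdown lines (-0.028 to 0.40). The number of members called in shHMGA2-1 was 1 with the 2-fold threshold and 2 to 5 with a library left out. For all knockdown libraries against shNC it was 4 with DESeq2, 0 to 1 with a library left out and 0 with the replicate block, in which BMP4 did not pass (adjusted p = 0.0628). Without the 5 pathway genes that a single line carried past the filter, 44 were tested. Of these, 23, 35, 30 and 6 were called in shHMGA2-1, shHMGA2-2, between the knockdown lines and for all knockdown libraries. With the 2-fold threshold 7, 17, 12 and 3 were. Of all 49 pathway genes tested, those 5 included, 25, 40, 33 and 7 were called in the same order (51.0%, 81.6%, 67.3% and 14.3%, against 33.4%, 58.7%, 50.2% and 5.26% of all genes). With the 2-fold threshold these were 9, 22, 15 and 4, and the last was 17 with DESeq2, 2 with the replicate block and 0 to 6 with a library left out. Over all genes the last comparison called 848, against 1982 with DESeq2, 152 with the block and 4 without either shNC library. The shHMGA2-1 comparison called 5388, against 3506 with limma on log2(FPKM + 0.1) and 3283 without shNC replicate 2. Upper quartile scaling moved the median of all genes by 0.11 in shHMGA2-2 and the share of calls that rose from 47.2% to 58.8% in shHMGA2-1 and from 44.5% to 55.7% for all knockdown libraries. Deviations of libraries with the same number correlated by -0.022, 0.0021 and -0.10. Correlations this weak cannot exclude a shared batch, on which the labels are silent. The block changed no call of a member in the comparisons of lines. A lone library of a line was assumed to vary like the others. At this depth GREM1, ID4 and 8 of the 14 ligand genes had too few counts to be tested.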
